A study of Mus musculus with 4 samples.

Results

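The broadest stretches of LSD1 occupancy in differentiating C2C12 cells are described here: the autosomal LSD1 peaks of day 2 that were 2000 to 5000 bp wide, called broad domains below. They were chosen by the measured width of the day 2 peaks, from chromosomes 1 to 19, and numbered 661 of 43459 autosomal day 2 peaks and of 44039 in the whole day 2 list. That is 1.52% of the autosomal peaks and 4.69% of the length these peaks covered, 1.58 Mb. Width therefore describes the domains and tests nothing, and the day 2 score comes from the same library. The day 5 list was made from another library and had no part in the choice.

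C2C12 is a mouse myoblast line whose cells fuse into myotubes when serum is withdrawn. All cells were grown in 10% FBS and 25 mM glucose. They were then moved to 2% horse serum at the same glucose, and harvested after 48 h (day 2, differentiating) or 120 h (day 5, differentiated). Chromatin was precipitated with a polyclonal LSD1 antibody, and each day gave an LSD1 library and an input library, 4 in all. The labels describe a single cell line and name no genetic change or further agent. Each group had 1 library, so no difference between the days has a replicate check and no p-value is given. All intervals have a level of 95% and allow for nothing but counting error among independent peaks, although neighbouring peaks are not independent. Read depth behind the lists is unknown, and less occupancy at day 5 cannot be told apart from a shallower or weaker library. The genes at these positions and their expression were not analysed here, because no mm9 annotation was used.

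LSD1, the product of Kdm1a, is a flavin-dependent demethylase that removes mono- and dimethyl marks from lysine 4 of histone H3. It has no sequence preference of its own and reaches chromatin through partners, chiefly the CoREST complex with histone deacetylases and DNA-binding factors. ChIP-seq signal of such a cofactor is usually confined to a promoter or a single enhancer, and a broad peak is a stretch where enriched fragments follow each other without a gap long enough for the caller to end it. In muscle cells LSD1 is known for its part in the switch from myoblast to myotube and in the control of metabolic genes.

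Most broad domains lay close to the lower width limit. Their median width was 2257 bp (interval of the median 2218 to 2286), with quartiles of 2106 and 2520 bp. Only 61 reached 3000 bp and 8 reached 4000 bp. The 3 narrowest domains were chr14:87815556-87817555 (2000 bp), chr5:28363392-28365392 (2001 bp) and chr2:135484010-135486010 (2001 bp). The 3 peaks just under the limit were each 1999 bp wide, chr15:58829120-58831118 (score 313), chr10:93262198-93264196 (566) and chr3:103082479-103084477 (392). The 3 narrowest domains scored 537, 581 and 491, so 1 of the 3 peaks under the limit was in their range and 2 were lower. At the upper limit, nothing lay between the widest domain at 4729 bp and the peaks of 6006 and 10824 bp on chromosomes 17 and 11 that the limit removed. A further peak of at least 2000 bp, chrX:17738806-17740929, was outside the autosomes.

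The domains were also among the strongest day 2 peaks. The score of a peak, the number MACS wrote in the deposited list on a scale that is not stated, had a median of 558 in the domains (534 to 588) against 105 over all autosomal day 2 peaks. It ran from 111 to 2642 in the domains. In the top decile of the day 2 list by score lay 579 domains (87.6%), and none had a score under the median of the list. Width and score were only loosely tied within the 661 domains (Pearson's r = 0.37, Spearman's rho = 0.32, a description over peaks of 1 library). The choice limited the width, so these values do not describe day 2 peaks of any width. Across all width classes the median score rose, from 61.6 under 500 bp to 935 at 3000 to 5000 bp. The weakest domain was chr1:90172613-90174931, 2319 bp wide with a score of 111, and even there 1 day 5 peak of 1234 bp was found inside it.

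LSD1 was still detected at day 5 in most broad domains. Of the 661 domains, 576 (87.1%, Wilson interval 84.4 to 89.5) overlapped at least 1 day 5 peak by 1 bp or more, whereas 30.6% of all autosomal day 2 peaks did. The share rose with day 2 width, from 9.62% of peaks under 500 bp through 56.6% at 1000 to under 1500 bp and 72.9% at 1500 to under 2000 bp. It was 85.2% (81.8 to 88.1) at 2000 to under 2500 bp and 95.1% (86.5 to 98.3) at 3000 bp and over, as the plot of day 5 peaks by day 2 width shows. On single chromosomes the share ran from 78.5% (67.0 to 86.7) on chromosome 10 to all 15 domains of chromosome 13 and all 17 of chromosome 18. The intervals of any 2 chromosomes overlapped, so they were not separated on this measure.

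**Figure D1:**
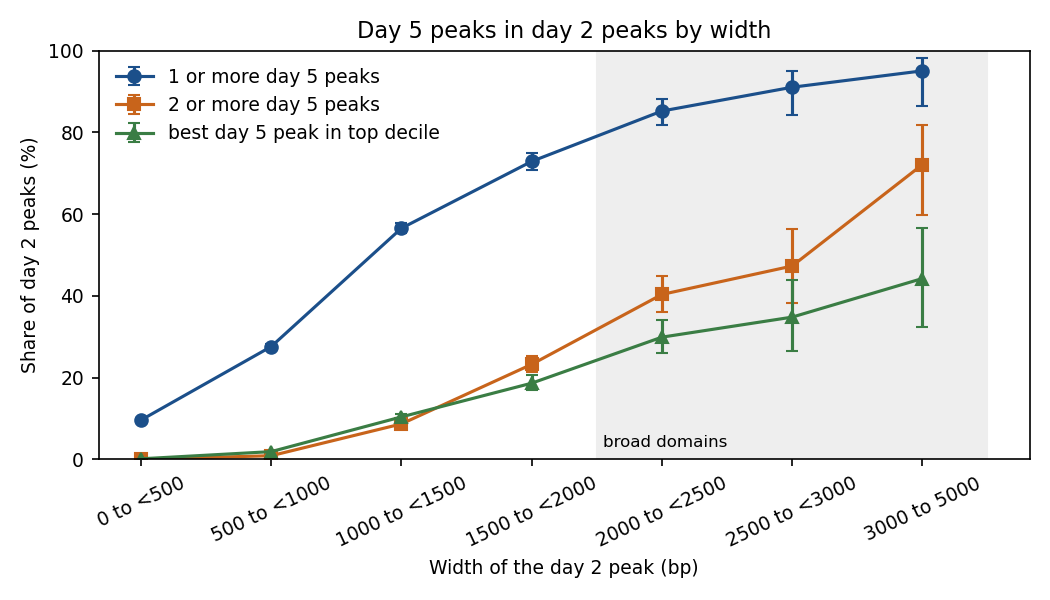
Share of autosomal day 2 peaks (vertical axis, %) that overlapped at least 1 day 5 peak (circles), at least 2 (squares), or whose best day 5 peak was in the top decile of the day 5 list by score (triangles), by width of the day 2 peak (horizontal axis, bp). Bars are Wilson 95% intervals and the shaded classes are the broad domains; all 3 shares are highest in the widest class, at 95.1%, 72.1% and 44.3%.

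Several separate day 5 peaks inside 1 domain were common. A single day 5 peak lay in 282 domains, 2 in 216, 3 in 62 and 4 in 16, which left 85 with none. Thus 294 domains (44.5%, 40.7 to 48.3) held 2 or more, against 3.49% of all autosomal day 2 peaks. The share was 40.4% at 2000 to under 2500 bp, 47.3% at 2500 to under 3000 bp and 72.1% (59.8 to 81.8) at 3000 bp and over. Per kb of domain the number of day 5 peaks did not rise with width, at 0.619, 0.576 and 0.611 in these 3 classes. The stretches without a call between neighbouring day 5 peaks of the same domain had a median of 255.5 bp and quartiles of 74 and 560 bp. Only 28 of 388 such gaps reached 1000 bp. When day 5 peaks less than 1 kb apart were joined, 4.08% of domains still held 2 or more. The width of a domain limits the gaps it can hold, so the gaps and this share are partly set by the choice. Gaps between day 5 peaks elsewhere were not compared.

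Compared with narrower peaks of the same day 2 score, the domains did not keep a day 5 peak more often. Peaks were set side by side in 9 ranges of day 2 score from 100 upward, which held all 661 domains. The narrower peaks, weighted to the scores of the domains, had a day 5 peak in 87.2% of cases, next to 87.1% in the domains. The domains had the higher share in 3 ranges and the lower one in 4, and both shares were 100% in the other 2. At scores of 400 to under 500 the share was 77.7% (68.7 to 84.6) in 103 domains and 84.5% (82.3 to 86.5) in 1154 narrower peaks. At 300 to under 400 it was 72 of 96 domains (65.5 to 82.6%) and 72.5% (70.6 to 74.3) of narrower peaks. Only in the lowest range, with 12 domains, did the intervals stand apart, at 58.3% (32.0 to 80.7) in the domains and 30.7% (29.9 to 31.6) in the others.

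At like score, the domains more often held several day 5 peaks, but the domains were also wider. With the same weighting, 2 or more day 5 peaks were found in 44.5% of domains and in 21.5% of narrower peaks. The domains had the higher share in 9 of 9 ranges, and the intervals stood apart in 8 of them. At scores of 1000 and over it was 78.8% (68.6 to 86.3) of 80 domains and 28.4% (20.3 to 38.2) of 95 narrower peaks. A wider peak offers more room, and per kb of day 2 peak the order turned: 0.601 day 5 peaks in the domains and 0.835 in the narrower peaks, lower in the domains in 9 of 9 ranges. Both measures depend on the width that chose the domains, so neither shows a different form of the day 5 signal.

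From a day 2 score of 300 upward, the best day 5 peaks in the domains scored lower than those in narrower peaks of like day 2 score. The best day 5 peak was in the top decile of the day 5 list, at a score of at least 156, in 212 domains (32.1%, 28.6 to 35.7), and in 3.96% of all autosomal day 2 peaks. In narrower peaks weighted to the same day 2 scores it was 44.1%. The domains had the lower share in 9 of 9 ranges, and the intervals stood apart in 3. At 600 to under 700, one of these 3, it was 31.6% (22.2 to 42.7) of 76 domains and 52.6% (46.8 to 58.3) of 287 narrower peaks. In the 2 lowest ranges it was 0 of 12 domains (interval up to 24.2%) and 0 of 51 (up to 7.005%), against 90 and 191 narrower peaks (0.577 to 0.870% and 3.48 to 4.59%), and there the median best day 5 score was higher in the domains, at 77.7 against 70.9 and 83.1 against 80.6. In the other 7 ranges that median was lower in the domains.

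**Figure D2:**
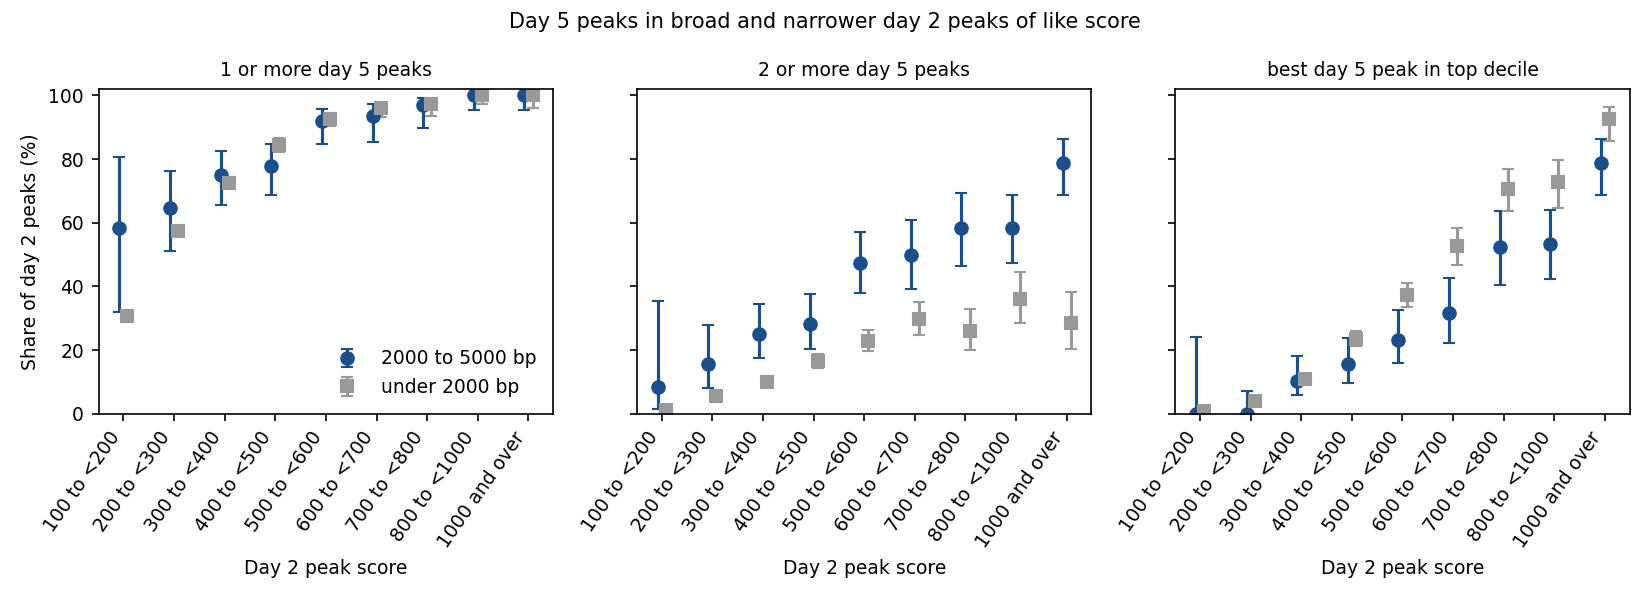
Share of day 2 peaks (vertical axis, %) with at least 1 day 5 peak (left), at least 2 (middle) and a best day 5 peak in the top decile of the day 5 list (right), by range of day 2 score (horizontal axis, score as deposited), for broad domains (circles) and peaks under 2000 bp (squares) with Wilson 95% intervals. The groups run together on the left, the domains lie above in all 9 ranges in the middle, and they lie below in all 9 on the right.

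Across quartiles of domain width, the fraction of a domain covered by day 5 peaks showed no steady change. Over the 576 domains with a partner, the bases covered had a median of 736 bp (684 to 785) and ran from 66 to 2464 bp. This was a median of 31.5% of the domain (29.4 to 33.1), against 43.8% over all autosomal day 2 peaks with a partner. From the narrowest to the widest quartile of the domains the median was 31.7%, 28.7%, 34.4% and 30.4%. The median day 2 score rose over these quartiles, at 480, 508, 562 and 766, so width and score were not separated. From the lowest to the highest quartile by score the median covered share was 22.1%, 27.3%, 32.3% and 42.7%. Over day 2 peaks of all widths with a partner, it fell from 60.4% under 500 bp to 34.9% at 1500 to under 2000 bp. At 3000 to 5000 bp it was 31.8%. At least 50% of the width was covered in 115 domains (17.4%, 14.7 to 20.5), next to 11.4% of all autosomal day 2 peaks, most of which had no day 5 peak. Within the top decile by day 2 score the order turned, at 19.5% of 579 domains and 35.4% of 3812 narrower peaks. The domains there still scored higher, with a median of 611 against 439. At like day 2 score, the range medians of the covered share, averaged by number of domains, gave 30.8% in the domains with a partner. They gave 49.4% in the narrower peaks with a partner, and the median was lower in the domains in 9 of 9 ranges. The covered share divides by the width that chose the domains. In bases covered the order was the reverse, at 748 bp in the domains and 606 bp in the narrower peaks, higher in the domains in 9 of 9 ranges. No day 5 peak was wider than the domain it met, and none touched 2 domains. Across the 661 domains, covered bases rose with the day 2 score (Pearson's r = 0.57, Spearman's rho = 0.57) and with the width (0.33 and 0.25). The choice of domains limited the width but not the score, so these 2 relations cannot be ranked against each other.

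**Figure D3:**
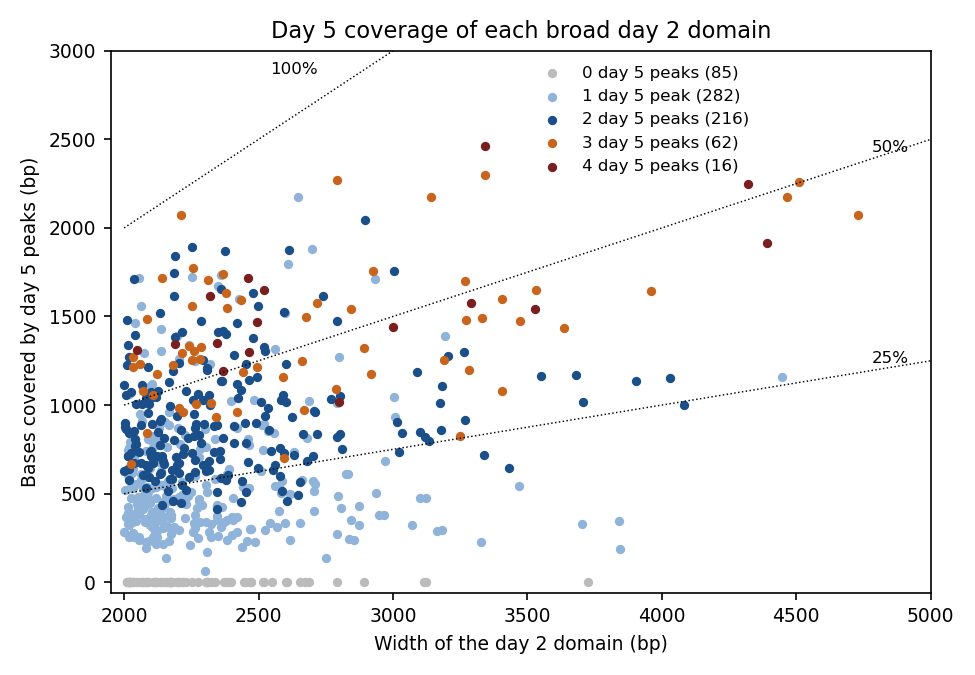
Bases covered by day 5 peaks (vertical axis, bp) against the width of the day 2 domain (horizontal axis, bp), 1 point for each of the 661 domains, coloured by its number of day 5 peaks. Dotted lines mark 25%, 50% and 100% of the width; most points lie under the 50% line, and 85 lie at 0.

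The 964 day 5 peaks that met a domain were larger than those that met only narrower day 2 peaks. They made up 5.57% of the autosomal day 5 list. Their median width was 418 bp (404 to 435) and their median score 94.3 (90.4 to 99.96), against 346 bp (343 to 349) and 76.2 (75.4 to 77.0) for the 13958 that met only narrower day 2 peaks. In the top decile of the day 5 list were 232 of them (24.1%, 21.5 to 26.9), next to 10.8% of the others. These values were not set at like day 2 score. At like day 2 score, the range medians of the best day 5 score, averaged by number of domains, gave 133 in domains and 168 in narrower peaks. The range median was lower in the domains in 7 ranges of day 2 score and higher in 2. Each of the 10 widest autosomal day 5 peaks of up to 5000 bp lay in a domain, and so did 44 of the 100 widest, but only 22 of the 100 of highest score. Their median width was 475 bp where a domain held 1, 408 bp where it held 2, 411 bp where it held 3 and 353 bp where it held 4.

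Nearly all day 5 peaks that met a domain lay inside it. Of the 964 peaks, 930 (96.5%) were wholly inside their domain. The midpoint of a day 5 peak lay a median of 41.4% of the way from the centre of its domain to the edge (38.4 to 43.7). Lone day 5 peaks were more central, at 35.4% (31.2 to 39.2), and 200 of 282 had their midpoint in the inner 50% of the domain. In domains with 2, 3 and 4 the offset was 43.7% (39.3 to 46.4), 43.2% (37.0 to 53.0) and 50.6% (40.6 to 61.8), and 256 of 432, 97 of 186 and 32 of 64 midpoints lay in the inner 50%. Coverage along the domain was low at the ends in every class. Over the middle it was level with 1 or 2 day 5 peaks, rose to the centre with 3 and was uneven with 4. With 1 day 5 peak, 35.2% of the central bins and 2.88% of the outermost twentieth were covered on average. With 3 these values were 67.3% and 14.7%, and with 4, in only 16 domains, 56.0% and 20.4%. The strand of transcription at the domains was not analysed here, so the profile was folded about the centre. A peak that lies wholly inside a domain covers its edges less and has its midpoint away from them by construction, so neither the offsets nor the low ends show a preference for the middle.

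**Figure D4:**
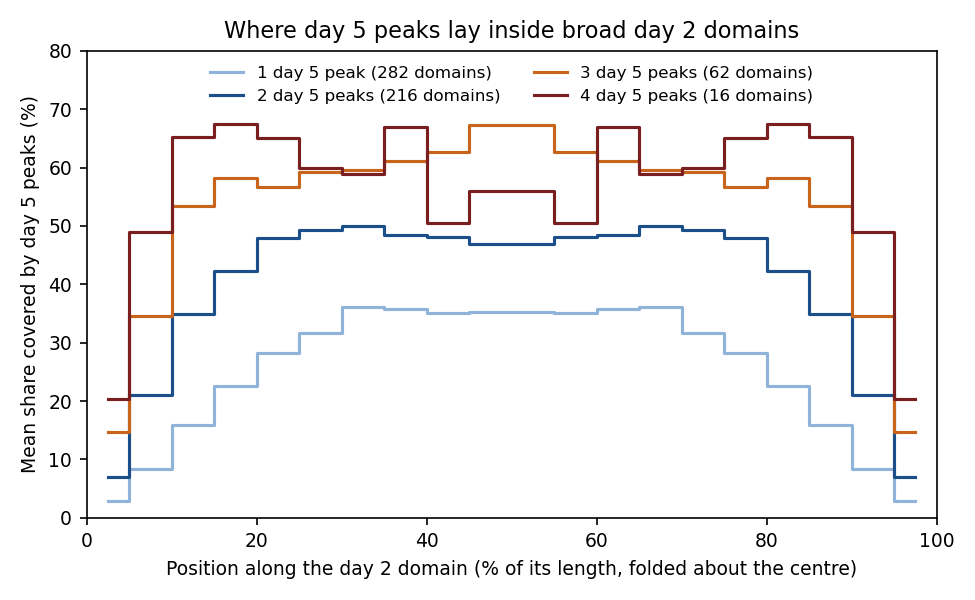
Mean share of the domain covered by day 5 peaks (vertical axis, %) in 20 bins along its length (horizontal axis, %), folded about the centre, for domains with 1 to 4 day 5 peaks. Coverage is lowest in the outermost bins in every class, and in the 282 domains with 1 day 5 peak it levels off near 35% over the middle.

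The widest domains offered the most room for separate day 5 peaks. The widest, chr8:86724278-86729006, was 4729 bp with a day 2 score of 1226. Its 3 day 5 peaks were 833, 630 and 610 bp wide, with scores of 150, 225 and 82.4, and they covered 43.8% of it. In the second, chr15:101197590-101202100 (4511 bp, score 1280), 1 of the 3 day 5 peaks dominated, at 1230 bp and a score of 499 (place 42 of 17446). In the third, chr15:7759678-7764143 (4466 bp, score 1791), a day 5 peak of 1144 bp and score 305 lay toward the far end, while peaks of 527 and 502 bp stood at the start. The fourth, chr15:76033999-76038445 (4447 bp, score 952), differed: a single day 5 peak of 1159 bp lay at its end and 26.1% was covered. Places 5 and 6 were the domains on chromosomes 10 and 15 with 4 day 5 peaks that open the next paragraph. The others of the 10 widest were chr19:5014893-5018976, chr15:96114981-96119011, chr11:4197354-4201314 and chr17:64948875-64952777, with 2, 2, 3 and 2 day 5 peaks and 24.6%, 28.5%, 41.5% and 29.2% covered.

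The domains with 4 day 5 peaks differed in the strength of those peaks. In chr10:13684060-13688449 (4390 bp, score 1170) the day 5 scores fell along the coordinates from 281 through 152 and 95.1 to 68. In chr15:61815599-61819919 (4321 bp, score 1265) the third of 4 was the strongest, with 225, and 52.0% of the domain was covered. The domain chr15:79854582-79857924 (3343 bp, score 694) had the largest summed day 5 width of all, 2464 bp or 73.7% of it, in 4 peaks of which the weakest scored 50. By contrast chr3:68296973-68299971 and chr12:112081797-112084594 held 4 weak peaks each, with best scores of 94.1 and 86.6. Named here are the 10 widest of the 16 domains with 4, and the rest of these 10 were chr16:52450395-52453921, chr11:32120571-32123859, chr10:39450748-39453266, chr13:53075418-53077913 and chr8:113316775-113319239. In these 5 the best day 5 score was 224, 356, 139, 104 and 96.0. In the domains with 4 that are not named, the best day 5 score ran from 151 to 284.

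The highest-scoring domains had day 5 peaks of very different extent. The first, chr4:133368541-133370576 (2036 bp), had a day 2 score of 2642, place 4 of the whole list. Its main day 5 peak was 1438 bp wide with a score of 692 (place 10), and 84.0% of it was covered. In the second, chr11:59119569-59123247 (3679 bp, score 1958), 31.7% was covered by 2 peaks. In the third, chr5:113643487-113646627 (3141 bp, score 1924), 3 peaks covered 69.2%. In chr4:134408294-134410389 (2096 bp, score 1854) a lone day 5 peak of 446 bp covered 21.3%, but with a score of 442 it held place 68. The domain chr2:32461784-32464572 (2789 bp, score 1793) had 3 day 5 peaks, the best of them only 141. Near it in day 2 score, chr3:51143544-51146243 (2700 bp, score 1786) kept 1 unbroken day 5 peak of 1881 bp and score 692. The others of the 10 were chr15:88581196-88583234, chr2:167068772-167070830, chr13:31897889-31900681 and the chromosome 15 domain from 7759678 named above. Each of the 10 had at least 1 day 5 peak.

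In a few domains day 5 peaks covered most of the width. The most complete was chr18:16966266-16968478 (2213 bp, day 2 score 1513), where 3 day 5 peaks of 728, 621 and 729 bp covered 93.7%. They were followed by chr15:96471407-96473595 (84.1%, 2 peaks), the first of the high-scoring domains above on chromosome 4 (84.0%), chr15:27395069-27397319 (84.0%, 2 peaks) and chr5:34162354-34164410 (83.4%, 1 peak of 1716 bp and score 519). The widest day 5 peak in any domain was 2177 bp, in chr8:83402418-83405064, with a score of 681 (place 12 of the day 5 list), and it covered 82.2%. The domain chr8:94879364-94882706 had a summed day 5 width of 2446 bp, of which 2297 bp were inside it.

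The 85 domains without a day 5 peak were mostly weaker ones at day 2. Their median day 2 score was 389 (346 to 417), against 520 (481 to 564) for domains with 1 day 5 peak, 656 with 2 and 816 with 3. Their median width was 2173 bp (2135 to 2218), next to 2198 bp with 1 (2161 to 2254) and 2438 bp with 3 (2286 to 2789). None of the 165 domains in the highest quartile by score lacked a day 5 peak, and 50 of the 166 in the lowest quartile did. The strongest without one was chr8:72990102-72992498 (2397 bp, score 743, place 517 of the day 2 list), followed by chr5:125560674-125562736 (727) and chr2:165680820-165683940 (3121 bp, 671). The widest of the 85 was chr11:77989160-77992883, at 3724 bp and a score of 635. The next 6 by score were chr1:93697332-93699401 (632), chr8:49074691-49076804 (622), chr17:63848159-63850335 (610), chr15:27953930-27956316 (588), chr19:5488960-5491648 (582) and chr11:76307117-76309201 (551).

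Broad domains were unevenly spread over the autosomes. Chromosome 15 held 98 of them, 14.8% of all domains (12.3 to 17.7), although it held 5.69% of autosomal day 2 peaks. Of its day 2 peaks 3.96% were broad (3.26 to 4.81), followed by 2.47% on chromosome 8 (57 domains), 2.45% on chromosome 10 (65) and 2.23% on chromosome 19 (31). On chromosome 8, 32 of the 57 lay from 79 to 99 Mb, with 538 of its 2311 day 2 peaks. On chromosome 15, 43 of the 98 lay from 71 to 91 Mb, with 900 of its 2473 day 2 peaks. Both stretches were picked with earlier results of these data known, so these counts do not test for uneven spread along a chromosome. The lowest shares were 0.292% on chromosome 7 (7 domains, 0.141 to 0.601) and 0.443% on chromosome 9 (10 domains, 0.241 to 0.813). The other 13 chromosomes lay between 0.797% and 1.60%. Day 2 peaks of any width were also wider on chromosome 15, with a median of 788 bp, and narrower on chromosomes 7 and 9, with 589 and 615 bp, against 665 bp over all autosomes.

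The chromosomes at both ends kept their place among peaks of high score. Of the 368 top-decile day 2 peaks on chromosome 15, 21.7% were broad (17.8 to 26.2), and on chromosome 8 it was 49 of 245 (15.5 to 25.5%). On chromosomes 7 and 9 it was 3.64% (1.68 to 7.71) and 4.64% (2.46 to 8.58). Of the 98 domains of chromosome 15, 89.8% had a day 5 peak (82.2 to 94.4) and 42.9% had 2 or more (33.5 to 52.7), next to 86.7% and 44.8% of the domains on the other autosomes. Their median day 2 score was 502. Among narrower peaks, the chromosome did have the highest share with a day 5 peak, 36.9% (35.0 to 38.8), and the other 18 autosomes had 26.1% to 31.3%.

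**Figure D5:**
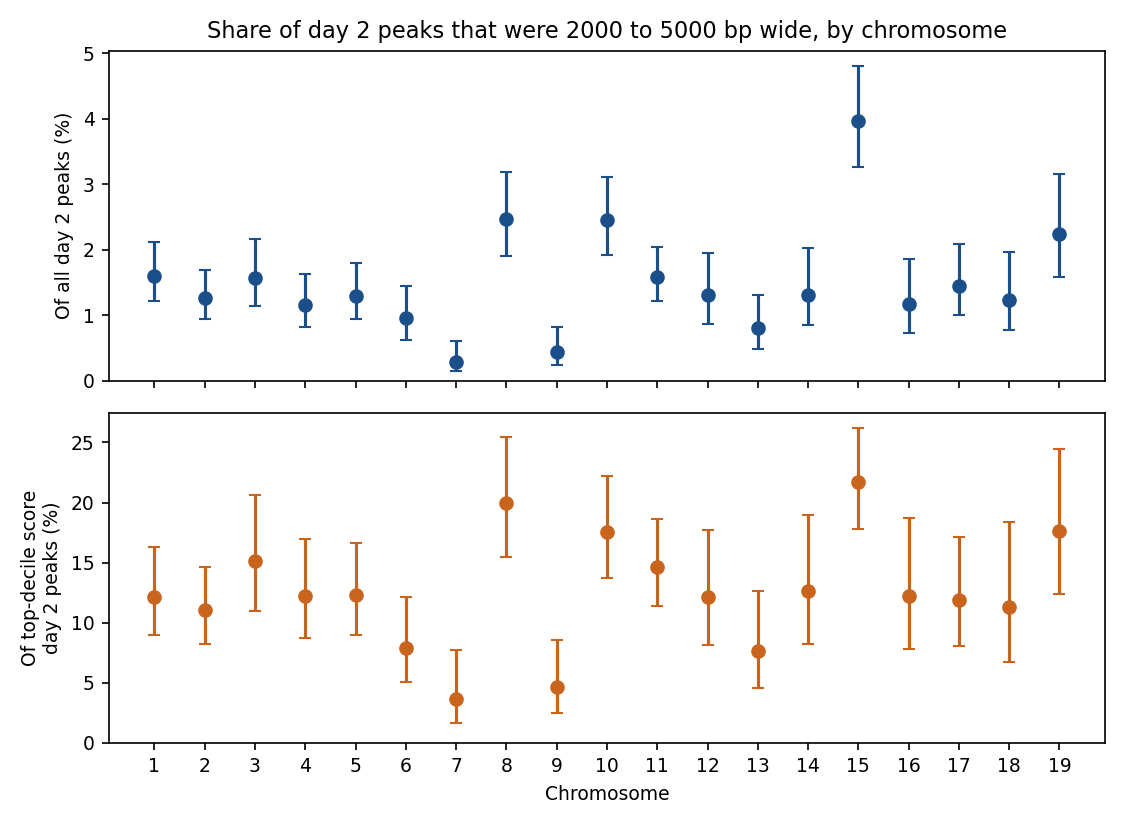
Share of day 2 peaks that were 2000 to 5000 bp wide (vertical axes, %) by autosome (horizontal axis), among all day 2 peaks (upper) and among those in the top decile by score (lower), with Wilson 95% intervals. Chromosome 15 is highest in both panels, at 3.96% and 21.7%, and chromosomes 7 and 9 are the 2 lowest in both.

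Some domains came in groups. Of the 661, 154 (23.3%, 20.2 to 26.7) had another domain within 100 kb from midpoint to midpoint, 88 within 50 kb and 12 within 5 kb. No equally large set of other day 2 peaks was compared, so these counts do not show more grouping than day 2 peaks have in general. The 661 fell in 468 windows of 1 Mb, and 42 windows held 3 or more. The fullest was chromosome 10 from 79 to 80 Mb, with 9 domains among 131 day 2 peaks. Next came chromosome 15 from 76 to 77 Mb with 8 among 85 and chromosome 11 from 117 to 118 Mb with 7 among 98. In these 3 windows all domains but 1 on chromosome 10 had a day 5 peak. The stretches of chromosome 8 from 79 to 99 Mb and of chromosome 15 from 71 to 91 Mb had 538 and 900 day 2 peaks. Among these were 32 and 43 domains, of which 30 and 39 had a day 5 peak, next to 87.1% of all domains. The shorter stretch of chromosome 1 from 135 to 139 Mb, with 247 day 2 peaks, held 1 domain. Of all autosomal day 2 peaks, 1.52% were domains.

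The 5 closest pairs of domains were separated by gaps of 50 to 1400 bp. On chromosome 10, domains of 3203 bp (from 79622768, score 1205) and 3015 bp (from 79626021, score 935) were 50 bp apart, and each held 2 day 5 peaks. On chromosome 15, domains of 2559 and 2664 bp met across 202 bp at 76028072, and the 4447 bp domain described above began 3060 bp further on. Also on chromosome 15, domains of 2242 bp (from 38399667, score 1507) and 2602 bp (from 38402393, score 824) were 484 bp apart, with 1 and 2 day 5 peaks. The next pairs were on chromosome 12 from 88141357, with a gap of 1088 bp, and on chromosome 8 from 87499138, with a gap of 1400 bp. All 10 domains of these 5 pairs held a day 5 peak.

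From midpoint to midpoint, broad domains lay about as far from their closest neighbour as narrower day 2 peaks did, and more of them lay in dense windows. These values were not set at like score. The nearest other day 2 peak was a median of 5722 bp away from midpoint to midpoint (5012 to 6380), against 5620 bp for narrower peaks (5523 to 5746). This distance includes part of the peaks' own widths, which is more in the domains. Its minimum was 1219.5 bp in the domains and 339.5 bp in narrower peaks. Distances between edges were not compared, so the values do not show which group lay nearer. More than 100 kb from any other day 2 peak lay 15 domains (2.27%, 1.38 to 3.71) and 2.38% of narrower peaks. Windows of 100 kb with at least 10 day 2 peaks held 179 domains (27.1%, 23.8 to 30.6) and 19.4% of narrower peaks (19.1 to 19.8). In the 5 kb on either side, outside the peak itself, 28.4% of domains had a further day 5 peak (25.1 to 32.0), and 23.8% of narrower peaks did (23.4 to 24.2).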

How the data were processed

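Members and lists were chosen with earlier results of these data known. Per the file headers, the authors called peaks with MACS in Galaxy; its version, cutoff and use of input were not given in the sources used here. Bowtie2, deepTools and mm9 appear in the submitters' processing notes. The authors deposited, for each LSD1 library, peak positions in bp (the other values used) and a peak score, which was compared within a list only. Input libraries and read totals were not analysed here, so depth is unknown. Positions are printed counted from 1. Peaks overlapped when they shared at least 1 bp, and bases covered were clipped to the domain. Shares have Wilson intervals and medians have order-statistic intervals. Score ranges were weighted by their number of domains, and medians at like score are weighted means of the range medians. By rule, the named regions were the 10 widest, 10 highest-scoring, 10 of largest summed day 5 width, 10 with most day 5 peaks, 10 strongest without one, 5 most covered, 5 closest pairs and 3 on each side of a limit; score ranges, quartiles and single examples were added later. Ties were broken by width, then by chromosome and start. Overlap counting was tested on simulated data. Alternatives concerned width, score, merging, overlap and distance. No mm9 sequence was used here, so none is printed. Software comprised pandas 2.3.3 and SciPy 1.17.1 under Python 3.11.15, with Matplotlib 3.10.9 and NumPy 2.4.6.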

Additional observations from a re-analysis of the deposited data

How the results depend on the processing

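Of 57 alternatives for 9 values, 26 stayed within the interval of the value (the number of domains within 1.5 times) and 31 moved. The values below follow the order number of domains, % with a day 5 peak, % with 2 or more, median bp covered, median % covered, % with a top-decile day 5 peak, % on chromosome 15, % with another domain within 100 kb, and median offset of day 5 peaks as % of the distance from centre to edge. They were 661, 87.1, 44.5, 736, 31.5, 32.1, 14.8, 23.3 and 41.4. At 1500 bp and over they were 2419, 76.8, 29.1, 625.5, 33.8, 22.3, 11.6, 44.3 and 38.0. At 2500 bp and over, 173 domains gave 92.5, 56.1, 910.5, 30.9, 38.2, 16.2, 12.7 and 42.1. With day 2 peaks less than 1 kb apart merged first, they were 2694, 72.7, 31.7, 556, 21.4, 16.9, 9.43, 51.8 and 53.1. With day 5 peaks in the upper part of their list by score, 73.1% had a day 5 peak and 22.7% 2 or more, with medians of 680 bp and 28.8% covered. Joining day 5 peaks less than 1 kb apart left 4.08% with 2 or more. A distance of 50 kb gave 13.3% with another domain. Without chromosome 15, added after the data were seen, 20.1% had another domain within 100 kb and the other values stayed within their interval. The offsets under each setting were also added then. Restricting day 2 to the upper part of its list by score left the 661 domains as they were, and requiring 50% of a day 5 peak inside the domain kept each value it bears on within its interval. More domains by a lower limit or by merging raise the share with a neighbour by construction, and for the remaining moves the cause was not tested. No paired analysis was possible because each group had 1 library, and for the same reason none could be left out.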
